A study of Mus musculus with 8 samples.

Results

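The WAVE regulatory complex and its Cyfip paralogs were followed as 10 genes (Cyfip1, Cyfip2, Nckap1, Nckap1l, Wasf1, Wasf2, Abi1, Abi2, Abi3 and Brk1) of the 55401 gene rows measured in mouse tibialis anterior (TA) muscle. The members were named as subunits of one complex, but the list was chosen by its mdx5cv and WT levels, because it was drawn up with the differences between these same muscles known. Those differences are therefore given as a description. Bulk RNA-seq had been done on TA muscles of 4 WT and 4 mdx5cv mice, all 6 mo old and all of the C57/Bl6 strain by their labels, and the methods of the study describe male mice with both groups on a C57BL/6J background. The mdx5cv mouse is a model of Duchenne muscular dystrophy that carries a mutation of Dmd, the dystrophin gene, in every cell of the animal. No treatment of either group is named in the sources used here. A whole TA muscle holds fibers, leukocytes, fibroblasts, vessels and nerve, so that a change in the number of cells of a type and a change in the RNA per cell cannot be told apart. The labels number the muscles 1 to 4 in each group and do not state separate litters, so that the spread between muscles is the only replicate error used.

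The WAVE complex is an assembly of a Cyfip, an Nckap, an Abi and a WAVE (Wasf) subunit with the small protein Brk1. It is held inactive until active Rac binds the Cyfip subunit, which frees the WAVE tail to switch on the Arp2/3 complex, the machine that starts branched actin filaments. Each of 4 subunits is encoded by paralogs that can replace one another. Nckap1l (Hem1) is known as the form of blood cells, Nckap1 as the form of most other tissues, and Cyfip proteins also bind FMRP and the cap-binding factor eIF4E, a link to the control of translation.

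Promoter windows are shown for Cyfip2, whose level differed most along with that of Nckap1l, and for Brk1, whose level differed least, so that both ends of the complex can be read side by side. The windows run from 250 bases before to 50 bases after the RefSeq start on GRCm38.p6. That of Cyfip2 is chr11:46312309-46312608 on the minus strand and that of Brk1 is chr6:113604522-113604821 on the plus strand, and capitals mark each CANNTG (the E-box core, the same on both strands).
Cyfip2: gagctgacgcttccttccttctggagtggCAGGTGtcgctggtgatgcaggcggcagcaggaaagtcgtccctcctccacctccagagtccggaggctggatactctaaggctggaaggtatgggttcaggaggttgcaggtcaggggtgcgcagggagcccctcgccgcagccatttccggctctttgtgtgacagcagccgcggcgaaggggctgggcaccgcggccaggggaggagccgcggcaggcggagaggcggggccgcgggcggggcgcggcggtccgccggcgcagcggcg
Brk1: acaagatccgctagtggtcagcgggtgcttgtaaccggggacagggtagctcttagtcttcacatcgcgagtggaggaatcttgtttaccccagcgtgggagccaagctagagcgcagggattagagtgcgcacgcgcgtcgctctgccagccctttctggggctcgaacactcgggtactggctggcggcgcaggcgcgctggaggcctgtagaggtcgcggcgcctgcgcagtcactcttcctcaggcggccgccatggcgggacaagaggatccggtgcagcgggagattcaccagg
The Cyfip2 window held 1 CANNTG and the Brk1 window held 0, against 72.3% of 32851 mouse promoter windows of the same length with at least 1. GAGGAA on either strand, a longer form of the GGAA core of ETS family sites, matched 0 times in the Cyfip2 window and 2 times in the Brk1 window. Of all windows 28.3% held it. GGAA alone was not counted and does occur in the Cyfip2 window. Both windows were rich in CG pairs, with 29 in Cyfip2 and 27 in Brk1 against a median of 7. The motifs were picked with the expression results known and a match is only a match of letters. RefSeq windows were found for 5 of the 10 members.

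Total reads assigned to genes ran from 13175524 to 14921057 per muscle, so that depth was alike in the 8 libraries, whereas the authors' size factors were 0.873 to 0.944 in WT and 1.06 to 1.25 in mdx5cv muscles. Fast fiber markers were abundant in every muscle, with Myh4 between 299500 and 516300 normalized counts, which fits the labelled tissue. Dmd itself was at 6954 ± 857 normalized counts in WT and 3964 ± 388 in mdx5cv muscles (SD, n = 4 each), a log2 fold change of -0.81 ± 0.12 (SE, limma adjusted p = 0.000177). The mutation leaves the gene in place, so that this level does not check the genotype. Summed macrophage markers were 566 to 841 normalized counts in WT and 4232 to 10180 in mdx5cv muscles, with all 10 genes higher without overlap. Summed regenerating fiber markers were 118 to 143 against 2175 to 8502, and summed endothelial markers 2513 to 3045 against 1536 to 1968. Muscle 4 had the highest sum of the mdx5cv muscles for macrophage, regenerating fiber, fibroblast, satellite cell and slow fiber markers. Not every gene followed its sum. Dcn and Gsn (fibroblast), Calcr (satellite cell) and Myl3 (slow fiber) were not highest in that muscle. Myl3 also fell, from 357 ± 99.5 normalized counts in WT to 38.7 ± 22.8 in mdx5cv muscles. WT muscle 2 had the highest sum of fibroblast markers (16660) and the lowest sum of fast fiber markers (712800) of the WT muscles. Its fibroblast sum was mostly Gsn (8539) and Dcn (4645), while Col1a1 and Col3a1 were higher in WT muscle 4. Of the fast fiber markers, Myh4, Pvalb and Tnnt3 were lowest in WT muscle 2, but Actn3, Tnni2 and Myoz1 were highest there.

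Of the 9 members with a mean of at least 10 normalized counts, 6 were higher in mdx5cv muscles at an adjusted p under 0.05 in the limma fit across all genes (Cyfip1, Cyfip2, Nckap1l, Wasf2, Abi1 and Abi3), 0 were lower and 3 were not called (Nckap1, Abi2 and Brk1). Across the 13677 genes tested, 20.9% were called higher and 20.1% lower. With a log2 fold change of at least 1 added, 2 members were called higher, Cyfip2 and Nckap1l, against 10.3% of genes higher and 3.27% lower. In 6 members every mdx5cv muscle lay above every WT muscle, in Nckap1 every mdx5cv muscle lay below, and in Abi2 and Brk1 the groups overlapped, whereas 20.3% of all genes lay wholly above and 19.8% wholly below. The median log2 fold change was 0.56 over the 9 members and 0.00 over all genes. The list was chosen with this contrast known, so nothing is read from its counts against these shares.

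**Figure D1:**
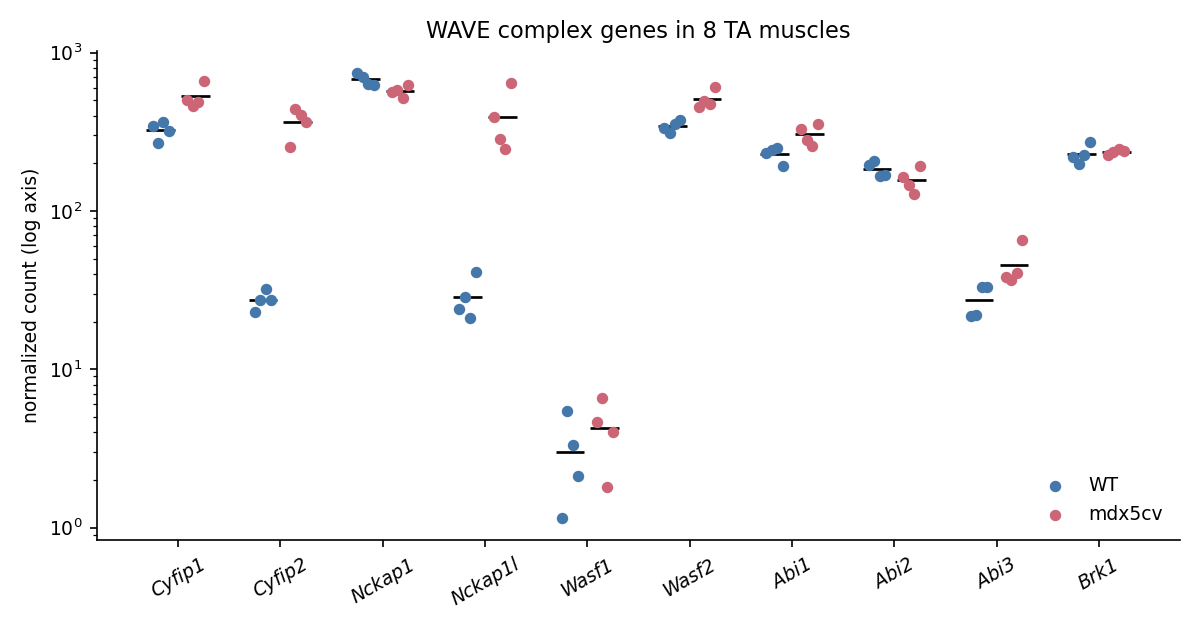
Normalized count (log axis) of the 10 WAVE complex genes in each TA muscle, with 4 WT and 4 mdx5cv points per gene and a black line at each group mean. Cyfip2 and Nckap1l sit between 21.0 and 41.3 in WT and between 246 and 645 in mdx5cv muscles, while the Brk1 groups overlap.

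The Cyfip subunit is the one that active Rac docks on, and both paralogs were higher in mdx5cv muscles. Cyfip2 (ENSMUSG00000020340.16, chr11:46193850-46312859, minus strand) was at 22.9, 27.4, 32.1 and 27.5 normalized counts in WT muscles 1 to 4 and at 252, 438, 405 and 362 in mdx5cv muscles 1 to 4. The lowest mdx5cv muscle thus lay far above the highest WT muscle, and mdx5cv muscle 1 was the low one of its group. The means were 27.5 ± 3.73 and 364 ± 81.0 (SD, n = 4 each), a 13.2-fold ratio and a log2 fold change of 3.66 ± 0.18 (SE). The WT level rested on few reads, 20 to 29 per muscle and 100 in all (exact 95% Poisson interval 81.4 to 122), against 1639 in the mdx5cv muscles (1561 to 1720), and these intervals cover counting error only.

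Cyfip1 (ENSMUSG00000030447.15, chr7:55841745-55932602, plus strand) was already present at 343, 268, 365 and 321 normalized counts in WT muscles and was at 503, 461, 488 and 665 in mdx5cv muscles. The groups did not overlap, and mdx5cv muscle 4 stood above the other three. The means were 324 ± 41.7 and 529 ± 92.0 (SD, n = 4 each), a log2 fold change of 0.70 ± 0.14 (SE). Exons of Nipa2 on the opposite strand cover 11.0% of the Cyfip1 exons, and Nipa2 itself was at 372 ± 71.8 and 300.2 ± 22.4 normalized counts.

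The Nckap subunit binds Cyfip along its length and holds the complex at the membrane, and of its paralogs here Nckap1l was called higher and Nckap1 was not called. Nckap1l (ENSMUSG00000022488.9, chr15:103453794-103498810, plus strand) was at 24.1, 28.5, 21.0 and 41.3 normalized counts in WT and at 391, 283, 246 and 645 in mdx5cv muscles. Every mdx5cv muscle was above every WT muscle, but the mdx5cv muscles differed among themselves by more than those for Cyfip2, with muscle 4 the highest. The means were 28.7 ± 8.94 and 391 ± 180 (SD, n = 4 each), a 13.6-fold ratio and a log2 fold change of 3.66 ± 0.28 (SE). WT muscles gave 105 reads in all (exact 95% Poisson interval 85.9 to 127) and mdx5cv muscles gave 1802 (1720 to 1887).

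Nckap1 (ENSMUSG00000027002.13, chr2:80500512-80581380, minus strand), the broadly used paralog, was at 743, 700, 637 and 625 normalized counts in WT and at 560, 583, 515 and 624 in mdx5cv muscles. WT muscle 4 and mdx5cv muscle 4 were nearly level, so that the groups were apart by less than 1 normalized count. The means were 676 ± 55.2 and 570 ± 45.5 (SD, n = 4 each), and the log2 fold change of -0.24 ± 0.10 (SE) was not called. Under equal library totals the value was 0.11, and without mdx5cv muscle 4 it was -0.29 and was called lower, so that neither its direction nor its call held throughout.

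WAVE proteins, encoded by the Wasf genes, carry the tail that activates Arp2/3. Wasf2 (ENSMUSG00000028868.13, chr4:133130505-133199756, plus strand) was at 335, 312, 352 and 375 normalized counts in WT and at 456, 494, 476 and 606 in mdx5cv muscles. The groups did not overlap, and the 3 mdx5cv muscles other than muscle 4 lay close together. The means were 343 ± 26.8 and 508 ± 67.1 (SD, n = 4 each), a log2 fold change of 0.56 ± 0.12 (SE). Wasf1 (ENSMUSG00000019831.14, chr10:40883475-40938570, plus strand), a form known from brain, had 1 to 5 reads per WT muscle and 2 to 7 per mdx5cv muscle and was not tested. Wasf3, the remaining WAVE gene, was at 12.1 ± 6.27 and 8.23 ± 1.31 normalized counts (log2 fold change -0.40 ± 0.38 SE, limma adjusted p = 0.422), so that no difference was detectable at its 6 to 19 reads per muscle.

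Abi proteins bind the WAVE and Nckap subunits and link the complex to the Abl kinases. Abi1 (ENSMUSG00000058835.14, chr2:22940073-23040241, minus strand) was at 230, 241, 249 and 191 normalized counts in WT and at 329, 279, 258 and 355 in mdx5cv muscles. The lowest mdx5cv muscle lay only just above the highest WT muscle. The means were 228 ± 25.9 and 305 ± 44.3 (SD, n = 4 each), with a log2 fold change of 0.42 ± 0.13 (SE). Its call was lost when WT muscle 4 (0.33), mdx5cv muscle 1 (0.38) or mdx5cv muscle 4 (0.34) was left out. Exons of Pdss1 on the opposite strand cover 4.81% of its exons.

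Abi2 (ENSMUSG00000026782.15, chr1:60409619-60481158, plus strand) was at 194, 207, 167 and 170 normalized counts in WT and at 164, 146, 127 and 193 in mdx5cv muscles. The groups overlapped through mdx5cv muscle 4. The means were 184 ± 19.5 and 158 ± 28.2 (SD, n = 4 each), and the log2 fold change of -0.24 ± 0.14 (SE) was not called and became 0.12 under equal library totals.

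Abi3 (ENSMUSG00000018381.15, chr11:95830074-95842476, minus strand), a member known from immune cells, was at 21.8, 21.9, 33.2 and 32.8 normalized counts in WT and at 38.0, 36.8, 40.5 and 65.5 in mdx5cv muscles. The groups were apart, but mdx5cv muscle 4 stood well above the other three. The means were 27.4 ± 6.44 and 45.2 ± 13.6 (SD, n = 4 each), a log2 fold change of 0.69 ± 0.24 (SE) that fell short of the threshold under 6 of 18 alternatives. Without mdx5cv muscle 4 the value was 0.50 and was not called. Of its exons, 70.1% lie opposite Zfp652, at 2259 ± 521 and 1546 ± 275 normalized counts, and 41.1% lie opposite Phospho1. The library kit keeps strand, but the strand setting of the counting is not given in the sources used here, so that the Abi3 level is uncertain.

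Brk1 (ENSMUSG00000033940.8, chr6:113604772-113616951, plus strand), the small subunit needed for the complex to assemble and with no paralog in the list, was at 220, 197, 227 and 273 normalized counts in WT and at 224, 234, 245 and 237 in mdx5cv muscles. All 4 mdx5cv muscles lay within the range of the WT muscles. The means were 229 ± 31.9 and 235 ± 8.60 (SD, n = 4 each), a log2 fold change of 0.04 ± 0.12 (SE). The value was -0.02 without WT muscle 2 and 0.40, and then called higher, under equal library totals.

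Levels of different genes were compared as normalized counts per kb of annotated exon. In WT muscles Brk1 stood first at 210 ± 29.1 per kb (SD, n = 4), followed by Nckap1 at 136 ± 11.1, then Abi1 at 56.5 ± 6.42 and Wasf2 at 54.8 ± 4.29, whose ranges overlapped. Cyfip1 at 27.1 ± 3.49 and Abi2 at 21.6 ± 2.28 came next and overlapped as well, and Abi3 at 6.61 ± 1.55, Nckap1l at 4.84 ± 1.51 and Cyfip2 at 3.87 ± 0.525 followed, each overlapping its neighbor. Wasf1 was last at 1.06 ± 0.655. In mdx5cv muscles Brk1 at 215 ± 7.85 and Nckap1 at 115 ± 9.17 per kb kept their ranks. Below them Wasf2 at 81.2 ± 10.7, Abi1 at 75.7 ± 11.0, Nckap1l at 65.9 ± 30.3, Cyfip2 at 51.3 ± 11.4 and Cyfip1 at 44.3 ± 7.70 formed a run in which each overlapped the next. Cyfip2 and Nckap1l thus moved from the low end of the WT order into this middle run. The place of Cyfip1 depended on the length used. With the longest transcript it was at 50.3 per kb in WT muscles, overlapping Wasf2 at 60.8 and apart from Abi2 at 32.0. In mdx5cv muscles it was then at 82.2, ahead of Nckap1l at 78.4 and Cyfip2 at 54.7, each overlapping the next.

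The order of the Cyfip paralogs in mdx5cv muscles depended on the length used, because the annotated exons of Cyfip1 span 11941 bases in all and those of Cyfip2 span 7103. Per kb of all exons Cyfip2 made up 10.1%, 14.7%, 12.9% and 12.6% of the summed Cyfip level in WT muscles and 45.7%, 61.5%, 58.3% and 47.8% in mdx5cv muscles. The means were 12.6% ± 1.89 and 53.3% ± 7.73 (SD, n = 4 each). With the longest transcript of each gene as its length the shares were 7.65% and 39.9%, so that Cyfip1 was then the larger in the mdx5cv muscles, and the WT and mdx5cv shares were apart either way. Nckap1l made up 3.47% ± 1.22 of the summed Nckap level in WT and 35.2% ± 8.40 in mdx5cv muscles, from 28.5% in muscle 3 to 46.4% in muscle 4. Wasf2 held 94.2% ± 2.34 and 96.3% ± 0.940 of the Wasf level, Wasf3 included. Among the Abi genes the share of Abi2 was 25.5% ± 2.44 in WT and 17.5% ± 0.562 in mdx5cv muscles without overlap, and that of Abi1 was 66.6% ± 2.57 and 72.2% ± 1.92.

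**Figure D2:**
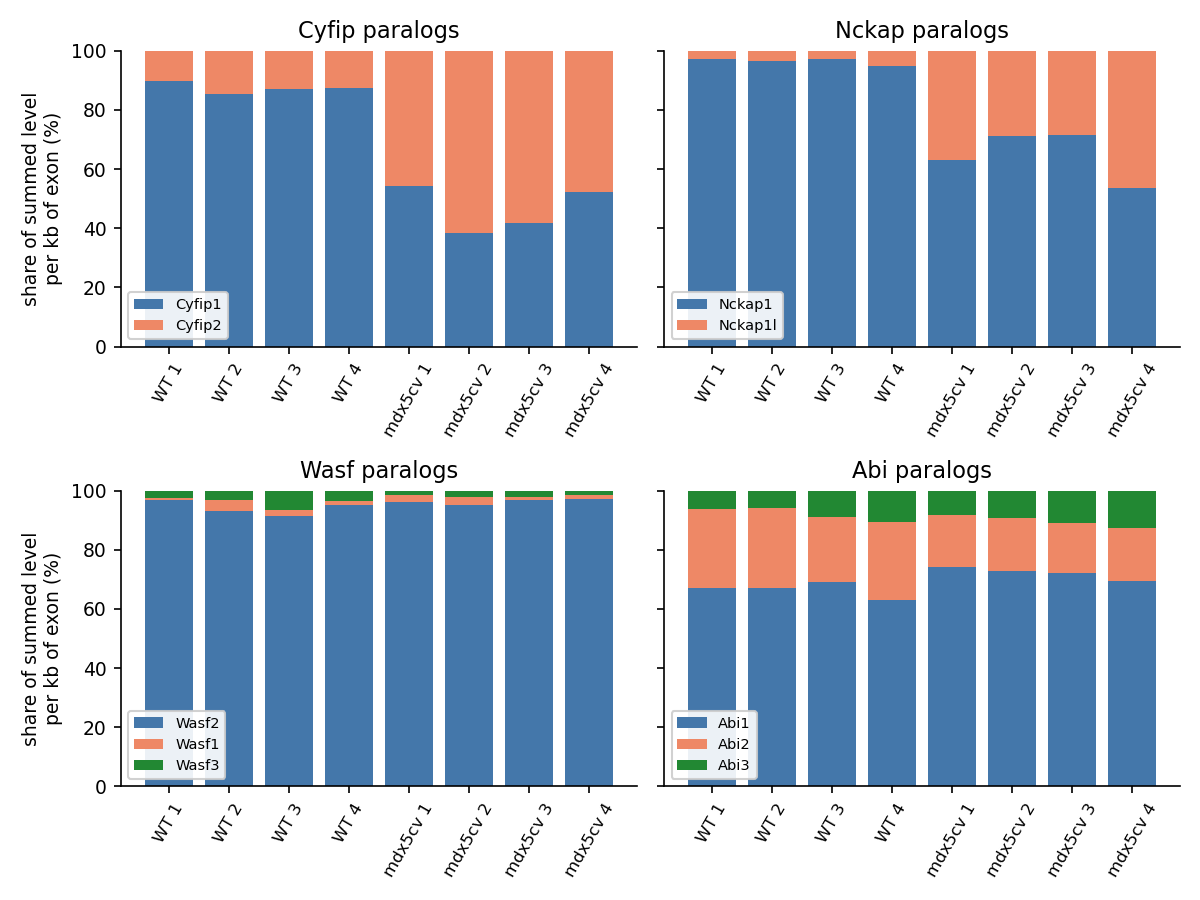
Share (%) of each paralog in the summed level per kb of exon of its subunit, as stacked bars for each of the 4 WT and 4 mdx5cv TA muscles. Cyfip2 takes 10.1% to 14.7% in WT and 45.7% to 61.5% in mdx5cv muscles, and Nckap1l takes 2.64% to 5.24% and 28.5% to 46.4%.

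Summed over paralogs, the Cyfip level was 31.0 ± 3.64 per kb in WT and 95.6 ± 12.6 in mdx5cv muscles (SD, n = 4 each), a ratio of 3.08 without overlap. The Wasf sum was 58.2 ± 4.64 and 84.2 ± 10.8 per kb, a ratio of 1.45 without overlap. The Nckap sum was 141 ± 10.5 and 181 ± 38.3, and the Abi sum was 84.7 ± 6.74 and 105 ± 16.8, and in both the groups overlapped. Per kb of all exons the transcripts of the subunits therefore did not differ between the groups by one common ratio, with Brk1 at 1.03 and Cyfip at 3.08. The sums were not recomputed with another length. The size of the Cyfip ratio depends on the length used, because Cyfip1 alone differed 1.63-fold and Cyfip2 13.2-fold.

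The mdx5cv muscles differed among themselves, and the members did not follow one pattern there. Ptprc (CD45), the general leukocyte marker, was at 652, 558, 391 and 1071 normalized counts in mdx5cv muscles 1 to 4 and at 55.0, 74.6, 63.0 and 57.2 in WT muscles. Nckap1l was in the same order over the mdx5cv muscles, and its ratio to Ptprc was 0.508 to 0.629 there and 0.333 to 0.722 in WT muscles, so that the groups overlapped on this ratio. Its ratio to Csf1r, a macrophage receptor, was 0.170 to 0.259 in WT and 0.426 to 0.518 in mdx5cv muscles, which did not overlap. In mdx5cv muscle 4 the level was 2.10 times the mean of the other mdx5cv muscles for Nckap1l, 2.01 times for Ptprc, 2.13 times for Csf1r and 1.71 times for Abi3. The ratio of Abi3 to Ptprc was nevertheless lower in mdx5cv muscles, at 0.0582 to 0.104 against 0.294 to 0.574 in WT muscles. Its ratio to Csf1r was lower too, at 0.0479 to 0.0791 against 0.156 to 0.268, and neither ratio overlapped between the groups.

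Cyfip2 did not have the order of Nckap1l and Ptprc over the mdx5cv muscles. Its level in mdx5cv muscle 4 was 0.992 times the mean of the other three, and its ratio to Ptprc ran from 0.338 to 1.04 in mdx5cv and from 0.368 to 0.509 in WT muscles, which overlapped. Its ratio to Csf1r was 0.159 to 0.259 in WT and 0.265 to 0.791 in mdx5cv muscles, which did not overlap, as for Nckap1l. Without mdx5cv muscle 4 the log2 fold change was 3.65 for Cyfip2 and 3.39 for Nckap1l. The ratio of mdx5cv muscle 4 to the others was 1.37 for Cyfip1, 1.28 for Wasf2, 1.23 for Abi1, 1.33 for Abi2, 1.13 for Nckap1 and 1.01 for Brk1. Of the 7 leukocyte and lymphocyte markers 4 were higher in all mdx5cv muscles, their sum was 80.2 to 117 in WT and 671 to 1729 in mdx5cv muscles, and Cd3e and Nkg7 were at 0 reads in all WT muscles. The part of leukocytes, regenerating fibers or other cells in the levels of the members was not tested.

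**Figure D3:**
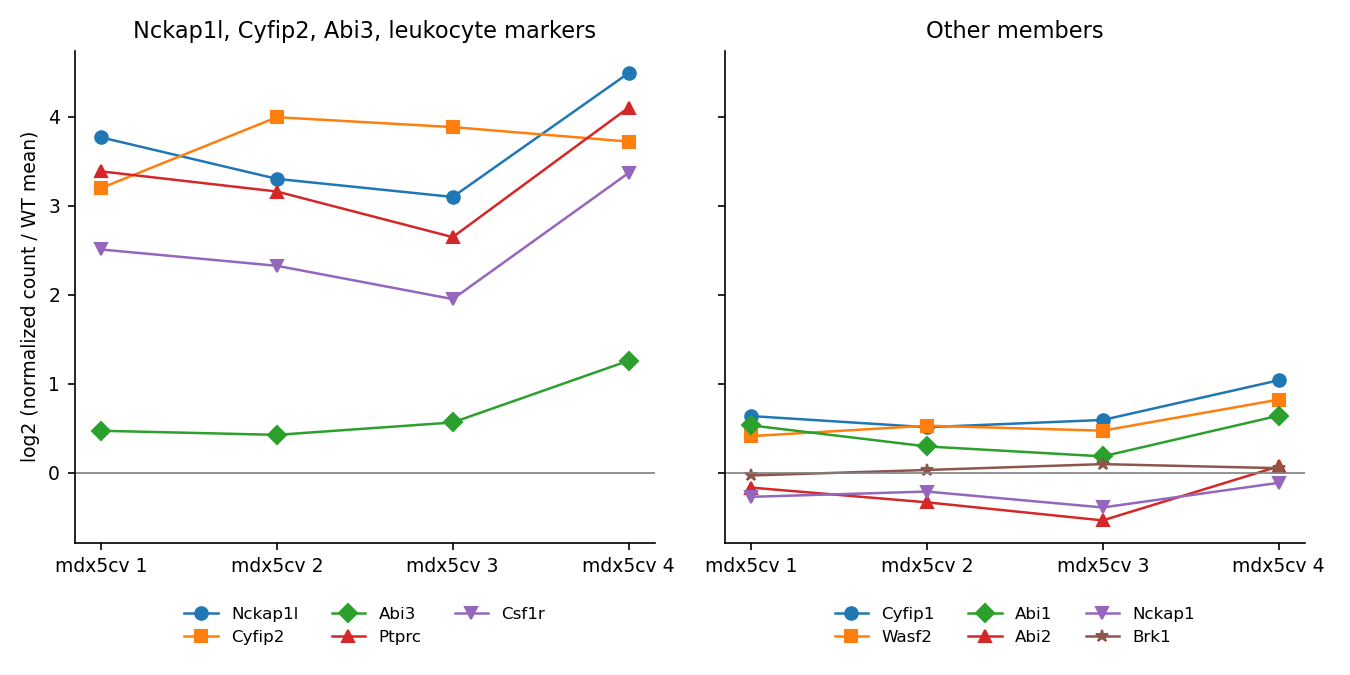
log2 ratio of the normalized count in each of the 4 mdx5cv muscles to the WT mean, with Nckap1l, Cyfip2, Abi3 and the leukocyte markers Ptprc and Csf1r on the left and the other members tested on the right. Nckap1l, Ptprc and Csf1r share their order over the muscles and peak in muscle 4, whereas Cyfip2 is highest in muscle 2 and lowest in muscle 1.

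The values of the members were recomputed under other scalings and tools and with each muscle left out. Cyfip1, Cyfip2, Nckap1l and Wasf2 were called higher under all 18 alternatives at the threshold of 0.05. Cyfip2 ranged from 3.30 to 4.01 on the log2 scale and Nckap1l from 3.30 to 4.01. When libraries were scaled to equal totals in place of the deposited factors, the median over all genes shifted on the log2 scale from 0.00 to 0.36 and the share of all calls that were higher from 51.0% to 86.9%, and the values of the members went up by about the same amount.

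**Figure D4:**
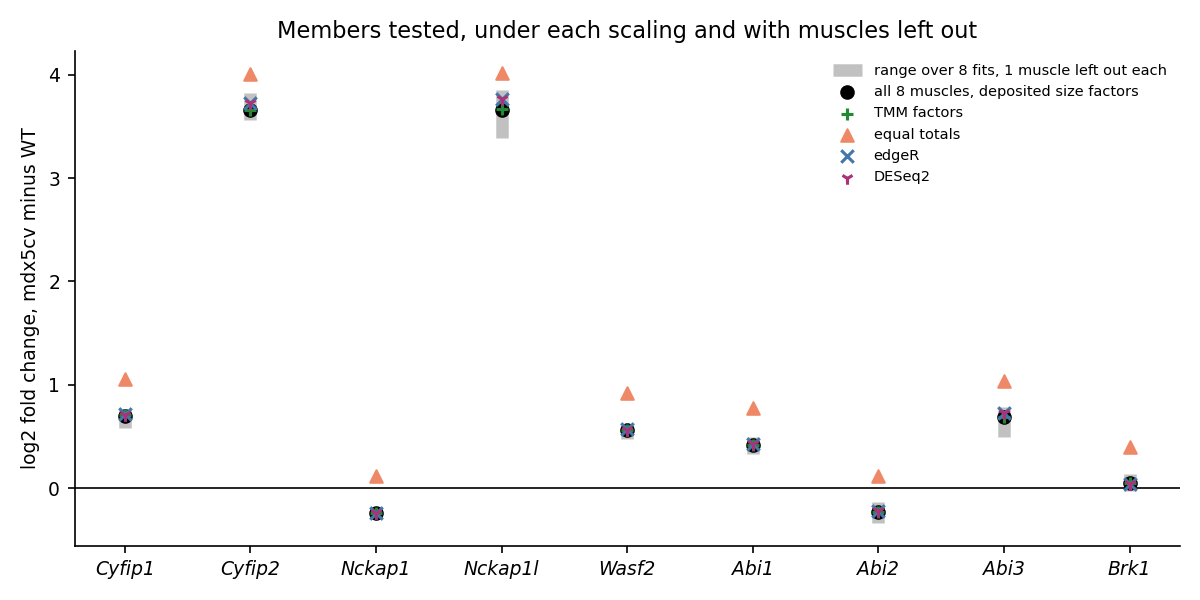
log2 fold change (mdx5cv minus WT) of the 9 members tested, with points for the deposited size factors, TMM factors, equal totals, edgeR and DESeq2 and grey bars for the range over the 8 fits that each left out 1 muscle. Nckap1 and Abi2 lie below 0 except under equal totals, and Cyfip2 and Nckap1l lie above 3 throughout.

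The genes around the complex were read from 7 lists of 78 genes, of which 76 were tested, with 32 called higher, 8 called lower and 36 not called (51 higher and 3 lower under equal totals), and a median log2 fold change of 0.23 against 0.00 over all genes. That is 42.1% higher and 10.5% lower beside 20.9% and 20.1% of all genes tested, and under equal totals 5444 of the 13677 genes tested were called higher and 820 lower. The lists were chosen with earlier results of these data known. Nothing is therefore read from these counts, or from those of each list below, against the shares over all genes. Upstream, Rac1 did not pass the test (1087 ± 196 and 1085 ± 41.0 normalized counts, log2 fold change 0.02 ± 0.13 SE), while Rac2, the form of blood cells, rose by 2.95 ± 0.35 and Rhog by 1.60 ± 0.26 (limma adjusted p = 3.07e-05 and 0.000397), among 5 of 7 GTPases called higher and 0 lower. The list of exchange factors that load Rac also holds the Elmo genes, whose proteins bind Dock factors and do not load Rac themselves. Of the 16 genes tested in this list 8 rose, Elmo1 included, among them Vav1 (3.93 ± 0.66 SE), Dock2 (2.78 ± 0.26), Tiam2 (2.26 ± 0.24), Prex1 (1.40 ± 0.16), Dock5 (1.27 ± 0.29) and Vav2 (1.05 ± 0.17). Vav1 was at 0 normalized counts in WT muscle 1, and its value ranged from 2.46 to 4.88 over the alternatives. Tiam1 (-0.82 ± 0.28) and Arhgef6 (-0.38 ± 0.11) were the 2 called lower, and both lost the call under equal totals. Tiam1 also lost it without a variance trend and without WT muscle 1 (-0.85), WT muscle 4 (-0.71) or mdx5cv muscle 3 (-0.49).

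Downstream, 5 of 10 Arp2/3 subunit genes were called higher and 2 lower, beside 20.9% and 20.1% of all genes tested. Under equal totals 8 were called higher and 2 lower. Actr3b, a paralog of the subunit Arp3, was at 156, 286, 147 and 138 normalized counts in WT and at 21.3, 19.8, 27.9 and 9.59 in mdx5cv muscles, a log2 fold change of -3.17 ± 0.30 (SE, limma adjusted p = 6.51e-06). Arpc1b rose by 1.33 ± 0.19 and Arpc5 by 1.12 ± 0.18, whereas Arpc5l fell by 0.66 ± 0.11 on the log2 scale (limma adjusted p = 0.000161, 0.000284 and 0.000513). The makeup of the paralogs differed here as well. Per kb of all exons Arpc5 was 23.8% ± 2.55 of its pair in WT and 51.7% ± 9.76 in mdx5cv muscles (13.7% and 35.6% without a length). Actr3b was 46.7% ± 7.07 of its pair with Actr3 and 6.13% ± 2.87. The sums of these pairs overlapped between the groups, unlike the Cyfip sum. Arpc1b was 34.7% ± 3.89 and 55.2% ± 8.29 of its pair with Arpc1a, whose sum did not overlap.

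Of 13 other genes that activate Arp2/3 or bind such activators, 2 rose, Was of blood cells (2.30 ± 0.39 SE) and Wipf1 (0.91 ± 0.17), and 11 were not called. Among 10 binding partners of WAVE, 4 were called higher, with Evl at 2.15 ± 0.27 and Baiap2 at 1.70 ± 0.26, and Nhs was lower (-1.71 ± 0.19). Among 15 genes of actin turnover 8 were called higher, including Tmsb10 (3.18 ± 0.24), Coro1a (2.54 ± 0.23), Hcls1 (2.18 ± 0.20), Cfl1 (1.28 ± 0.19) and Coro1c (1.28 ± 0.17). Capza2 (-0.53 ± 0.12) and Pfn2 (-0.40 ± 0.12) were lower and lost the call under equal totals, and Pfn2 also lost it without WT muscle 1 (-0.35). Of the 5 FMRP and cap-binding partners of Cyfip, Fxr2 was lower (-0.57 ± 0.14) and lost the call under equal totals, and Fmr1 (0.20 ± 0.13) and Eif4e (-0.26 ± 0.13) were among the 4 not called.

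**Figure D5:**
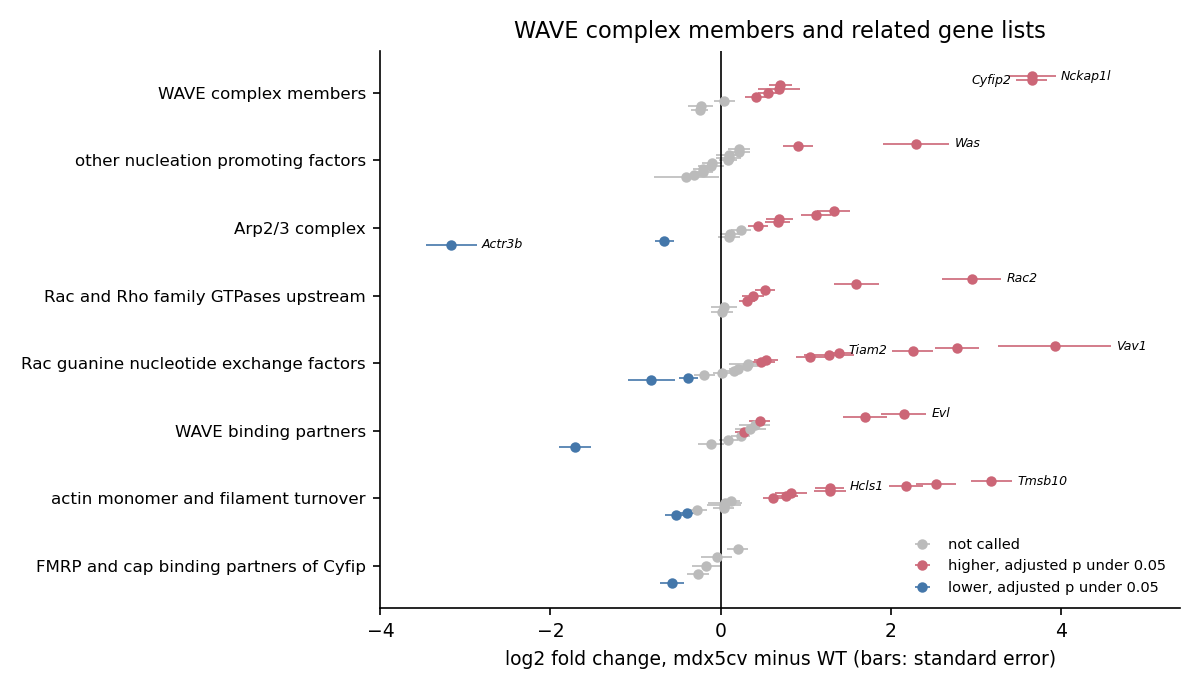
log2 fold change (mdx5cv minus WT) with its standard error for each gene tested among the members and the 7 related lists, colored by the call at an adjusted p under 0.05. Cyfip2 and Nckap1l lie at 3.66, and Actr3b lies lowest at -3.17.

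The genes whose pattern over the 8 muscles was most like that of each Cyfip paralog were ranked by Pearson's r of log2(normalized count + 1) among 7640 genes with a mean of at least 100. For Cyfip1 these were Ctsz (0.991), Chrna1 (0.986), Csnk2a2 (0.986), P4hb (0.984) and Dusp11 (0.983). Ctsz encodes a lysosomal protease and Chrna1 the alpha subunit of the muscle acetylcholine receptor. Both were highest in mdx5cv muscle 4, as were Csnk2a2, P4hb and Dusp11. For Cyfip2 they were C77080 (0.990), St6galnac4 (0.990), Qsox1 (0.989), Ankrd1 (0.986) and Armh4 (0.986). Ankrd1, a stress-responsive ankyrin-repeat protein of striated muscle, was at 69.9 to 94.0 normalized counts in WT and 759 to 923 in mdx5cv muscles. Unlike Cyfip2 itself, C77080, Qsox1 and Ankrd1 were highest in mdx5cv muscle 4, whereas St6galnac4 and Armh4 were not. These coefficients are a description across 8 muscles that fall into 2 groups, and no coefficient within a group was computed.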

How the data were processed

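TA muscles of 6-mo-old mice were harvested, RNA was isolated with Trizol and stranded total RNA libraries were made with a TruSeq kit, per the labels. The submitters' processing notes name FastQC, Trim Galore 0.6.4, STAR 2.6.0c, SAMtools 1.9, featureCounts, MultiQC 1.6, DESeq2 1.26.0, R 3.6.2 and mm10, while the annotation and strand setting of the counting are not given in the sources used here. The authors deposited one signal per gene and muscle, the read count divided by a size factor. Whole reads were recovered for 100.0% of the values (tolerance 0.001).

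Genes averaging 10 or more normalized counts over the muscles were tested with limma 3.58.1 (R 4.3.3) on log2(normalized count + 1), two-sided, with Benjamini-Hochberg adjustment and no covariate. For low genes, fold changes on this scale can lie below or above those from the reads. Nckap1l was at 3.66 against 3.76 in edgeR, and Vav1 at 3.93 against 3.45. edgeR 4.0.16 (quasi-likelihood) and DESeq2 1.42.0 on the recovered reads, other scalings, pseudocounts and filters, a replicate block and each muscle left out were alternatives. The fits were tested on simulated data. Coordinates and exon lengths came from GENCODE M21 (GRCm38), in which 54349 of 55401 identifiers matched with their version, and promoters from RefSeq. The members, the motifs and all gene lists were chosen with earlier results of these data known. Named genes were the members, Dmd, Wasf3, in each list the 2 genes with the largest positive and negative log2 fold change among those called and all called past an absolute value of 1, and the 5 genes most like each Cyfip paralog. Genes overlapping a member, Rac1, Fmr1, Eif4e, Ptprc, Csf1r and Myh4 were named outside this rule after their values were seen.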

Additional observations from a re-analysis of the deposited data

Results flagged for a closer look

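In 7 of the 96 sets of 4 muscles examined, 1 muscle lay apart from its group by Dixon's criterion, and chance alone gives about 1 in 20 such sets. On the log2(normalized count + 1) scale Abi3 was highest in mdx5cv muscle 4 at 6.06, with the other three at 5.24 to 5.38. Rhog was highest in the same muscle at 7.29 (others 6.44 to 6.52), as was the sum of the satellite cell markers at 8.34 (others 7.56 to 7.67). Actr3b was highest in WT muscle 2 at 8.17 (others 7.12 to 7.29). In that muscle the summed fibroblast markers were highest at 14.02 (others 13.38 to 13.44) and the summed fast fiber markers lowest at 19.44 (others 19.71 to 19.76). Tiam1 was highest in WT muscle 4 at 7.20 (others 6.71 to 6.78).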

How the results depend on the processing

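Over the alternatives, 148 of 162 values of the members kept their direction and their side of the threshold, 9 lost the call, 2 gained it and 3 changed sign. Of 500 values of the named pathway genes and Dmd, 490 kept both and 10 lost the call. With equal totals 5444 genes were called higher and 820 lower (2854 and 2743 with the deposited factors), 51 pathway genes higher and 3 lower, and the log2 fold change was 0.11 for Nckap1 and 0.12 for Abi2. When a log2 fold change of 1 or more in size was also required, 1414 genes were higher and 447 lower, 2 members were higher, and 18 pathway genes were higher and 2 lower. With 1 muscle left out, genes called higher ranged from 2319 to 2906 and lower from 2243 to 2618, members called higher from 4 to 6 and lower from 0 to 1 (Nckap1, without mdx5cv muscle 4), pathway genes higher from 29 to 32 and lower from 6 to 11, and Brk1 from -0.02 (without WT muscle 2) to 0.13. Without mdx5cv muscle 4 the 4 members called higher were Cyfip1, Cyfip2, Nckap1l and Wasf2. The Cyfip2 share was 7.89% in WT and 40.7% in mdx5cv muscles without a length, and 7.65% and 39.9% with the longest transcript, both chosen after seeing the data. The r of deviations was 0.0309 to 0.146 for same-numbered muscles of the 2 groups and -0.148 to 0.0741 for the other pairs. Whether the replicate numbers pair the muscles was not tested. With a replicate block 5616 genes were called in place of 5597. The cause of these shifts was not tested. At 1 to 7 reads per muscle Wasf1 could not be compared, and depth limits Cyfip2, Nckap1l and Abi3 in WT muscles to 19 to 39 reads each.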
